A study of Homo sapiens with 6 samples.

Results

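The genes described here break down heme and take up, store, release and sense iron. They are 10 listed genes: the heme oxygenases HMOX1 and HMOX2, the biliverdin reductases BLVRA and BLVRB, the ferritin chains FTH1 and FTL, the transferrin receptor TFRC, the iron exporter SLC40A1 and the iron regulatory proteins IREB2 and ACO1. Each was read from the transcript cluster (the array's unit for 1 gene) that carried its symbol alone, and the brightest cluster was to be taken where several did. Of the 10 genes, 8 had such a cluster, and each of these had exactly 1. FTH1 and IREB2 were not analysed here. In all, 22465 genes were measured in this way.

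RNA of AC16, a human myocardial cell line made by fusing ventricular heart cells with virus-transformed fibroblasts, was hybridised to 6 Affymetrix arrays. In 3 samples the cells had received PM2.5, fine airborne particulate matter, at 50 µg/mL for 24 h, and 3 samples were labelled as control with neither a vehicle nor a time named. The titles name them biological replicates without saying whether the cultures were separate, and p-values therefore describe array-to-array spread that may be technical. Values are log2 expression after RMA, with SD and n = 3 per group, and precision is limited by having 6 arrays. In such bulk RNA, fewer cells of a type and less RNA per cell cannot be told apart.

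Heme oxygenase opens the heme ring and releases iron, carbon monoxide and biliverdin, which biliverdin reductase turns into the antioxidant bilirubin. The iron so freed is stored inside ferritin, a shell of heavy and light chains, or leaves the cell through ferroportin, the product of SLC40A1. Iron regulatory proteins bind a hairpin, the iron-responsive element, when iron is scarce: in the leader of ferritin mRNA this blocks translation, and in the tail of TFRC mRNA it protects the message. HMOX1 is known as a gene that oxidants, metals and heme induce through the factor NRF2 and the loss of the repressor BACH1.

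The sequences below show a stretch of the FTL leader with the loop letters of an iron-responsive element, and the promoters of 4 members. For these 4 members all arrays of the low spike-in set read above all arrays of the high spike-in set, as described further on. The sequences shown are RefSeq sequences of GRCh38.p14, written 5′ to 3′ in the sense of the gene. In FTL the capitals mark the loop letters CAGTGN. Shown are transcribed bases 21 to 50, which do not span the whole hairpin, at chr19:48965329-48965358 (plus strand).
FTL: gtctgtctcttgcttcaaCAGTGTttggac
In the promoters, the 150 bases before the start are shown, and capitals mark the GC box CCGCCC and the TATA box TATAAA on either strand. They lie at chr9:32384493-32384642 (ACO1, plus strand), chr7:43758530-43758679 (BLVRA, plus strand), chr19:40465746-40465895 (BLVRB, minus strand) and chr3:196082091-196082240 (TFRC, minus strand).
ACO1: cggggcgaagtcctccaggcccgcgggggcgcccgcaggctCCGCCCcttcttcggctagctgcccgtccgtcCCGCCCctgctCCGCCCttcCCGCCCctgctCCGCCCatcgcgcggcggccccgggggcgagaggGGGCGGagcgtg
BLVRA: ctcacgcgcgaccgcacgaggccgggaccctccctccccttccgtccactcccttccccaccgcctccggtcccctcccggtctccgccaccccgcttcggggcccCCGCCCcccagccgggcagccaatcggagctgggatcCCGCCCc
BLVRB: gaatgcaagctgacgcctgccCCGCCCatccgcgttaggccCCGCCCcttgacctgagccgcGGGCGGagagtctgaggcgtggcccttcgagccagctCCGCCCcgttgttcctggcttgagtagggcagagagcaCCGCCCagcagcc
TFRC: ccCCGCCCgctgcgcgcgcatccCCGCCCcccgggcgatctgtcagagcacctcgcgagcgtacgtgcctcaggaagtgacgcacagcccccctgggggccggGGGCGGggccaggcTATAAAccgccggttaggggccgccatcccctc

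The table of promoter windows held 8 of the 10 members, and HMOX1 and FTH1 were not among them. The loop letters CAGTGN, read on the sense strand of the first 50 transcribed bases, matched in FTL from base 39 and in none of the other 7 members, against 6.37% of 35116 windows. Over the 250 bases before the start, on both strands, the GC box matched in each of the 8 members, and 42.6% of all windows held it. It matched 6 times in ACO1 and in BLVRB, 3 times in TFRC and in SLC40A1, and 2 times in BLVRA and in FTL. IREB2 and HMOX2 had 2 windows each, of which 1 held it, 2 times in IREB2 and 1 time in HMOX2. The TATA box matched in TFRC alone of the 8 members (10.7% of all windows). The E-box CACGTG matched in HMOX2 alone (6.35% of all windows), and the core of the antioxidant response element, TGACNNNGC, in none of the 8 (10.9% of all windows). These matches describe letters in short windows only.

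No member passed the test of PM2.5 against control (limma, adjusted p over all genes under 0.05), and neither did any other gene (0% of 22465). At an unadjusted p under 0.05 stood 1 member, HMOX1, and 473 genes in all. Of the 7 members that varied between arrays, 5 had a higher and 2 a lower mean after PM2.5, with a median log2 change of 0.15 where the median of all varying genes was -0.01. With the array set, described next, as a block, 3 members had a change above and 4 below 0, and their median was -0.04.

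Averaged over 8 probe sets for control RNAs added during processing (spike-ins), the arrays formed 2 sets. The high spike-in set, at 10.7 to 10.9, was control replicate 1, control replicate 2 and PM2.5 replicate 1. The low spike-in set, at 10.2 to 10.3, was control replicate 3, PM2.5 replicate 2 and PM2.5 replicate 3. Because 2 PM2.5 arrays but 1 control array were in the low set, each member's change is also given within the sets and with the set as a block. A reading counts as background up to 5.66, the highest of 23 background probe sets on any array, a limit chosen with the data known. That reading was on control replicate 1, and the highest on each other array lay from 4.68 to 5.14. A gene called within background can thus exceed the highest background reading of its own array. SLC40A1 lay within the limit of 5.66 on every array and the other 7 measured members above it on all 6. In the check of the labelled cell type, 1 of 12 measured cardiomyocyte markers (MYL2), 5 of 9 fibroblast markers, 1 of 10 macrophage and leukocyte markers (CD68) and 0 of 4 erythroid markers lay above background. Mean levels of these 4 lists ranged from 4.44 to 4.46 after PM2.5 and 4.44 to 4.50 in controls for cardiomyocyte, 6.29 to 6.62 and 5.97 to 6.75 for fibroblast, 4.56 to 4.64 and 4.53 to 4.58 for macrophage and leukocyte, and 4.02 to 4.03 and 3.97 to 4.06 for erythroid markers, overlapping between treatment groups in each list. Genes that define the heart muscle cell, such as TNNI3, MYH7 and NKX2-5, and the blood lineages, such as PTPRC and HBB, were within background on every array.

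HMOX1, the inducible heme oxygenase, was higher on every PM2.5 array than on every control array. It read 6.51, 6.30 and 6.37 on PM2.5 replicates 1 to 3, and 6.17, 5.93 and 6.11 on control replicates 1 to 3. The means were 6.39 ± 0.110 and 6.07 ± 0.128, a 1.25-fold difference (log2 0.32, 95% confidence interval 0.04 to 0.60; limma unadjusted p = 0.0298, adjusted p = 1). The difference did not pass the test over all genes, where HMOX1 ranked 265 by p. In an exact permutation test, two-sided, p was 0.1, the smallest that 3 against 3 arrays allow.

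The array sets overlapped for HMOX1, and its change had the same sign in both sets. It was 0.46 higher after PM2.5 in the high set and 0.22 higher in the low set, each a contrast of 1 array with 2 and so without an error. With the set as a block the change was 0.34 (95% confidence interval 0.07 to 0.61; limma unadjusted p = 0.0223, adjusted p = 0.862). HMOX1 was the 1 member of 8 with all PM2.5 arrays above all controls, a pattern shown by 1.95% of all genes and by 1.78% of the 4150 genes above background on at least 3 arrays. The adjusted p was 0.862 or more in all but 3 of the other fits, namely with array weights (0.138), with spike-in signal in the model (0.445) and without control replicate 3 (0.537). Without PM2.5 replicate 1, PM2.5 replicate 3 or control replicate 2, the unadjusted limma p of HMOX1 was no longer under 0.05.

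HMOX2, the constitutive heme oxygenase, varied little between the arrays. It read 6.92, 6.94 and 6.88 after PM2.5 and 6.93, 6.86 and 7.01 in controls, so that the groups overlapped. The log2 change was -0.03 (95% confidence interval -0.29 to 0.24; limma adjusted p = 1), an interval that allows between 0.815-fold and 1.18-fold. By array set the difference of HMOX2 did not pass the test (log2 0.05, low minus high spike-in; limma adjusted p = 0.679).

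**Figure D1:**
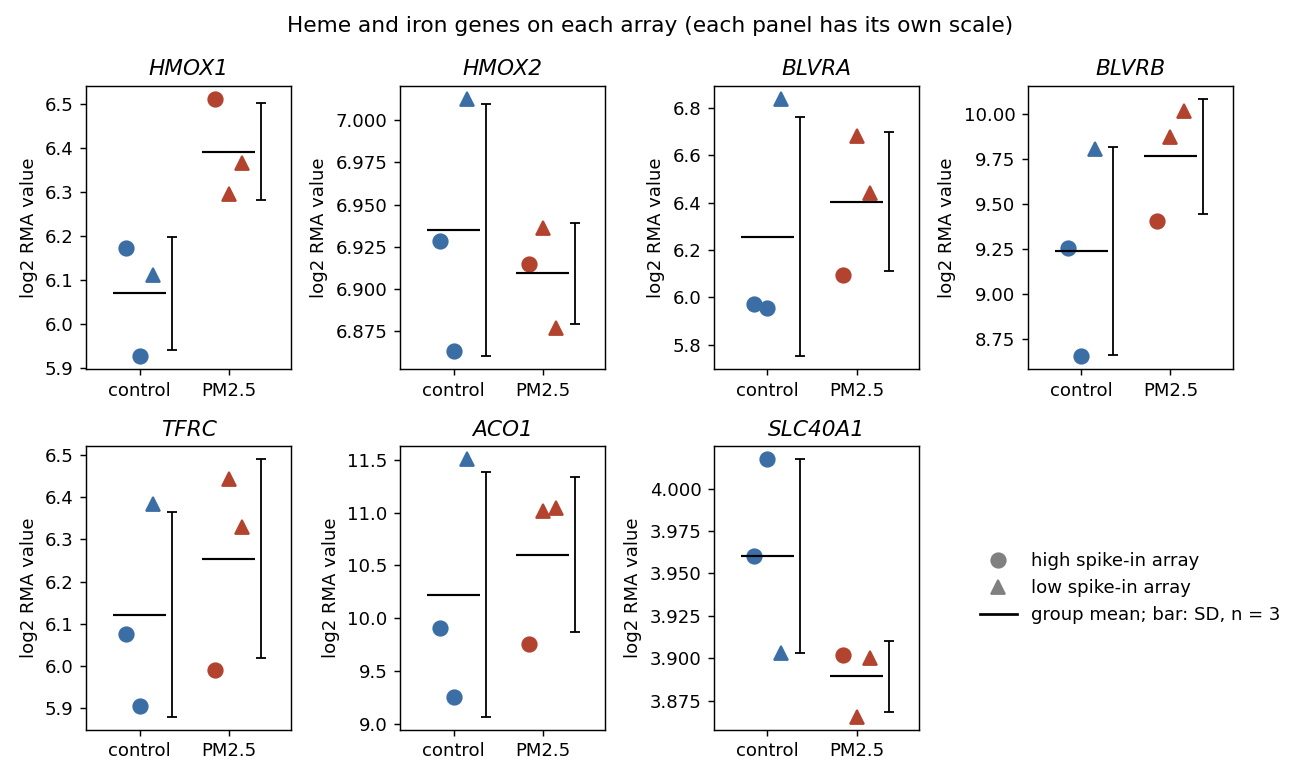
Log2 RMA value (vertical axis, own scale per panel) of the 7 varying members on each of the 3 control and 3 PM2.5 arrays, with the group mean as a line and the SD (n = 3) as a bar. Circles are high and triangles low spike-in arrays. For HMOX1 the PM2.5 arrays (6.30 to 6.51) lie above the controls (5.93 to 6.17), while for BLVRA, BLVRB, TFRC and ACO1 the triangles lie above the circles.

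BLVRA and BLVRB are the biliverdin reductases among the members. BLVRB, which also reduces flavins, read 9.40, 9.87 and 10.02 after PM2.5 and 9.25, 8.65 and 9.81 in controls. Its mean was 1.44-fold higher after PM2.5, the largest mean difference among the members, but the groups overlapped (log2 0.53, 95% confidence interval -0.32 to 1.38; limma adjusted p = 1). The low array was control replicate 2, and without it the log2 change was 0.23, while without control replicate 3 it was 0.81. BLVRB was 0.45 higher after PM2.5 in the high set and 0.14 higher in the low set, and 0.29 higher with the set as a block (95% confidence interval -0.22 to 0.81).

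BLVRA, the main reductase of the adult form of biliverdin, separated the array sets, while its treatment groups overlapped. It read 6.09, 6.68 and 6.44 after PM2.5 and 5.97, 5.96 and 6.84 in controls. The highest of the 6 values was that of a control, replicate 3. The log2 change of 0.15 (95% confidence interval -0.55 to 0.85; limma adjusted p = 1) was -0.07 with the set as a block, and it was 0.13 in the high set and -0.28 in the low set. Leaving out 1 array moved it between -9.13e-05 (without control replicate 2) and 0.44 (without control replicate 3).

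FTL, the ferritin light chain, could not be compared. Its cluster read 19.93 on all 6 arrays, the ceiling of the deposited values, as did 33 genes in all. A ferritin light chain pseudogene, FTLP3, was at the ceiling on all 6 arrays too, and another, FTLP10, read between 3.67 and 4.04, within background. Since processed ferritin pseudogenes copy the mRNA closely, transcripts of FTLP3 and of FTL cannot be told apart here.

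Clusters of ferritin heavy chain pseudogenes were measured below the ceiling. Whether these read transcripts of the pseudogenes or of FTH1 cannot be told here. FTH1P4 read 15.61, 15.46 and 15.51 after PM2.5 and 15.68, 15.84 and 15.75 in controls. Every PM2.5 array was thus below every control, by 0.23 in the mean (SE 0.07), a difference that did not pass (limma unadjusted p = 0.0172, adjusted p = 1). Of all genes 3.37% had every PM2.5 array below every control. The difference of FTH1P4 was -0.15 in the high set and -0.27 in the low set. FTH1P3 had 2 clusters above background. The first read 16.08, 16.04 and 15.93 after PM2.5 and 15.89, 16.03 and 16.34 in controls, and the second 10.16, 10.07 and 10.15 against 10.03, 10.03 and 10.40. Neither cluster of FTH1P3 separated the groups. The mitochondrial ferritin FTMT (4.36 to 4.62) and the ferritin-like gene FTHL17 (3.83 to 4.22) stayed within background.

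TFRC, the receptor that brings transferrin-bound iron into the cell, had overlapping treatment groups, and its mean difference was near 0 within each array set. It read 5.99, 6.44 and 6.33 after PM2.5 and 6.08, 5.90 and 6.38 in controls. The log2 change was 0.13 (95% confidence interval -0.30 to 0.57; limma adjusted p = 1). Among the high spike-in arrays the change was -0.0012 and among the low ones 0.0021. As for HMOX1, these contrasts within a set carry no error. With the set as a block the change was 0.00044 (95% confidence interval -0.21 to 0.21). Leaving out 1 array moved the unblocked change between 0.02 (without control replicate 2) and 0.26 (without PM2.5 replicate 1).

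SLC40A1, ferroportin, stayed within background on every array. It read 3.90, 3.87 and 3.90 after PM2.5 and 3.96, 4.02 and 3.90 in controls. The groups did not overlap, but by a margin visible only in the third decimal (3.902 for the highest PM2.5 array and 3.903 for the lowest control). Among all genes 3.37% had every PM2.5 array below every control. The log2 change was -0.07 (95% confidence interval -0.17 to 0.03; limma adjusted p = 1).

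ACO1, which is the cytosolic aconitase when it holds an iron-sulfur cluster and an iron regulatory protein when it does not, varied most between arrays among the members. It read 9.75, 11.01 and 11.05 after PM2.5 and 9.90, 9.25 and 11.51 in controls, a range of over 2 log2 units inside the control group. The log2 change was 0.38 (95% confidence interval -1.24 to 2.00; limma adjusted p = 1). It was 0.17 in the high set and -0.48 in the low set, and -0.15 (95% confidence interval -0.77 to 0.46) with the set as a block. Without control replicate 3 it was 1.02, and without control replicate 2 it was -0.10.

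**Figure D2:**
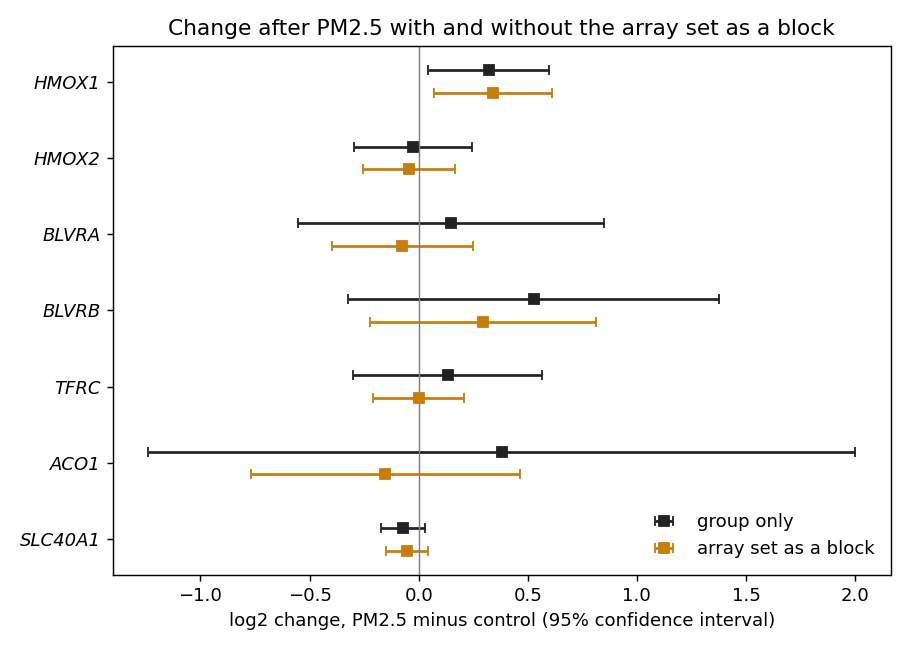
Log2 change of the 7 varying members, PM2.5 minus control (horizontal axis, 0 is no change), with 95% confidence intervals from limma. Black squares are the fit on the group alone and orange squares the fit blocked on array set. In both fits the interval of HMOX1 lies above 0 (0.04 to 0.60 and 0.07 to 0.61) and the other intervals include 0.

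Between the array sets, with the treatment in the same fit, 2 of the 7 varying members passed limma's test, both higher in the low spike-in arrays. These were ACO1, at 11.2 on average in the low and 9.64 in the high set (log2 1.60, 95% confidence interval 0.99 to 2.22; adjusted p = 0.0313), and BLVRA, at 6.65 and 6.01 (log2 0.67, 95% confidence interval 0.35 to 0.99; adjusted p = 0.0438). Over all genes 5.4% passed as higher and 2.65% as lower in the low set, and of the genes above background 20.4% passed as higher. BLVRB (log2 0.70, adjusted p = 0.0986) and TFRC (log2 0.40, adjusted p = 0.0511) did not pass. The fibroblast markers also differed by set, with list means of 6.60 to 6.75 in the low and 5.97 to 6.31 in the high set. Of these 9 genes, 4 had every low array above every high one (COL1A1, COL1A2, FN1 and PDGFRB). Another 3 had every low array below (THY1, POSTN and FAP, all within background), as had 5405 of 22465 genes. Of the 9, 1, COL1A1, passed (2.30-fold higher in the low set, limma adjusted p = 0.0488). Of the 10 macrophage and leukocyte markers, 1, CD68, had every low array above every high one (log2 1.16, limma adjusted p = 0.108). Another 4 had every low array below (PTPRC, CSF1R, CD3E and MS4A1, all within background). Of the 12 cardiomyocyte markers, 3 had every low array above (MYL2, NPPB and TBX5) and 2 below (MYH6 and RYR2). Of the 4 erythroid markers, 0 had every low array above and 1 below. The means of these 3 lists overlapped between sets (4.56 to 4.64 against 4.53 to 4.59 for macrophage and leukocyte, 4.44 to 4.50 against 4.44 to 4.46 for cardiomyocyte and 3.97 to 4.02 against 4.02 to 4.06 for erythroid markers). The part of these markers in the members' set differences was not tested.

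All 3 low spike-in arrays lay above all 3 high ones for ACO1, BLVRA, BLVRB and TFRC. This pattern was shown by 16.3% of all genes and by 45.3% of the genes above background, so it was common on these arrays. HMOX1 (log2 -0.06, adjusted p = 0.726), HMOX2 and SLC40A1 (log2 -0.05, adjusted p = 0.386) had overlapping sets. Leaving out 1 array at a time, neither ACO1 nor BLVRA passed without PM2.5 replicate 1, PM2.5 replicate 2, control replicate 1 or control replicate 3. Without PM2.5 replicate 3 ACO1 missed the threshold (limma adjusted p = 0.0626) and BLVRA passed (0.0491), and without control replicate 2 ACO1 passed (0.041) and BLVRA missed it (0.0926).

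The wider pathway was read from 70 further genes of heme and iron handling in 8 groups. Of these, 60 were measured and 59 varied. By limma 0 rose and 0 fell after PM2.5, with 3 at an unadjusted p under 0.05. A higher mean after PM2.5 was found for 32 and a lower one for 27, with a median log2 change of 0.01, and of the 20 varying genes above background 14 had a higher and 6 a lower mean. With the array set as a block these counts turned, to 23 above and 36 below 0 over the list (median -0.02). Among the 20 genes they turned to 6 above and 14 below 0. All varying genes above background turned likewise, from 2228 higher and 1869 lower to 1442 above and 2655 below 0 with the block. No limma adjusted p of a gene named from this list was below 1.

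Among regulators of HMOX1, NFE2L2, the gene of NRF2, read 5.06 ± 0.0394 after PM2.5 and 5.03 ± 0.0117 in controls, within background. MAFG, a small MAF partner of NRF2, read 4.25 ± 0.0278 against 4.16 ± 0.0387, also within background. Every PM2.5 array of MAFG was above every control (limma adjusted p = 1), as for 1.95% of all genes. KEAP1, which keeps NRF2 low, was above background at 7.67 ± 0.0180 against 7.70 ± 0.0823, with overlapping groups. Heme synthesis had 6 of 7 measured genes with a higher mean and 0 called, but 2 of 7 with a change above 0 once the array set was a block. Every low spike-in array lay above every high one for 6 of the 7, against 16.3% of all genes and 45.3% of the genes above background. Of the 7 genes, 2 were above background. The first enzyme of heme synthesis, ALAS1, read 7.90 ± 0.182 against 7.49 ± 0.512. The log2 difference of 0.41 was 0.50 in the high set and -0.04 in the low set. FECH, which inserts the iron (5.35 ± 0.0959 against 5.31 ± 0.163), and PPOX, the enzyme before it (4.36 ± 0.0421 against 4.32 ± 0.0650), stayed within background. FECH did exceed the highest background reading of its own array on every array but control replicate 1.

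In heme transport and binding, 7 of 11 genes had a higher and 4 a lower mean (9 and 2 with the set as a block). FLVCR2, a transporter of the family of the heme exporter FLVCR1, read 5.94 ± 0.185 against 5.71 ± 0.272 and was above background on 4 arrays. SLC46A1, a folate carrier also described as a heme carrier (4.37 ± 0.0592 against 4.28 ± 0.107), and the haemoglobin binder HP (3.996 ± 0.128 against 4.09 ± 0.0340) were within background. In iron uptake 2 of 10 genes had a higher and 8 a lower mean (1 and 9 with the set as a block), and only SLC39A14 and STEAP3 were above background. LCN2, a carrier of iron-bound siderophores, had the lowest p of that group (4.21 ± 0.0279 against 4.35 ± 0.0557, limma unadjusted p = 0.0157, adjusted p = 1), within background on every array. SLC39A8, a metal importer, read 4.56 ± 0.0819 against 4.64 ± 0.0473, and EXOC6, a part of the exocyst, 4.30 ± 0.00526 against 4.34 ± 0.0434.

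Around ferritin, the iron chaperone PCBP1 read 9.52 ± 0.0667 against 9.28 ± 0.254 and NCOA4, the receptor that sends ferritin to the lysosome, 6.08 ± 0.426 against 6.00 ± 0.566. Neither separated the groups. The second chaperone, PCBP2, named here after its values were seen, read 15.83 on all 6 arrays, so that no change could be read. All 5 genes of iron export and its control, HAMP (hepcidin), HEPH, BMP6, HJV and CP, were within background on every array. In iron sensing, FBXL5, which marks IREB2 protein for breakdown when iron is plentiful, read 4.64 ± 0.0791 against 4.59 ± 0.130 and SKP1, its partner in that ligase, 4.80 ± 0.179 against 4.70 ± 0.215, both within background. EPAS1, a hypoxia factor whose mRNA carries an iron-responsive element, read 6.46 ± 0.422 against 6.32 ± 0.738.

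Of the 16 measured genes of mitochondrial iron and iron-sulfur clusters, 6 had a higher and 10 a lower mean (4 and 12 with the set as a block). HSCB, a chaperone of cluster assembly, read 4.92 ± 0.0372 against 5.14 ± 0.0242, and ISCA2, a late assembly factor, 4.54 ± 0.0817 against 4.81 ± 0.192. For both genes every PM2.5 array lay below every control (limma unadjusted p = 0.00477 and 0.038, adjusted p = 1 each), as for 3.37% of all genes. Both were named for the lowest p-values of their group, and both were within background on every array. HSCB did exceed the highest background reading of its own array on PM2.5 replicate 3, control replicate 2 and control replicate 3. ISCA2 did so on control replicate 2 and control replicate 3. SLC25A28, a mitochondrial iron importer, read 4.34 ± 0.0445 against 4.39 ± 0.0581. By array set, 9 of the 59 varying genes of the wider list passed limma's test, all higher in the low spike-in arrays, where 5.4% of all genes did. Above background these were 6 of 20, against 20.4% of all genes above background. Among the 9 were EPAS1 (log2 1.00, adjusted p = 0.0302), NCOA4 (log2 0.80, adjusted p = 0.0464) and FLVCR2 (log2 0.39, adjusted p = 0.0437).

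**Figure D3:**
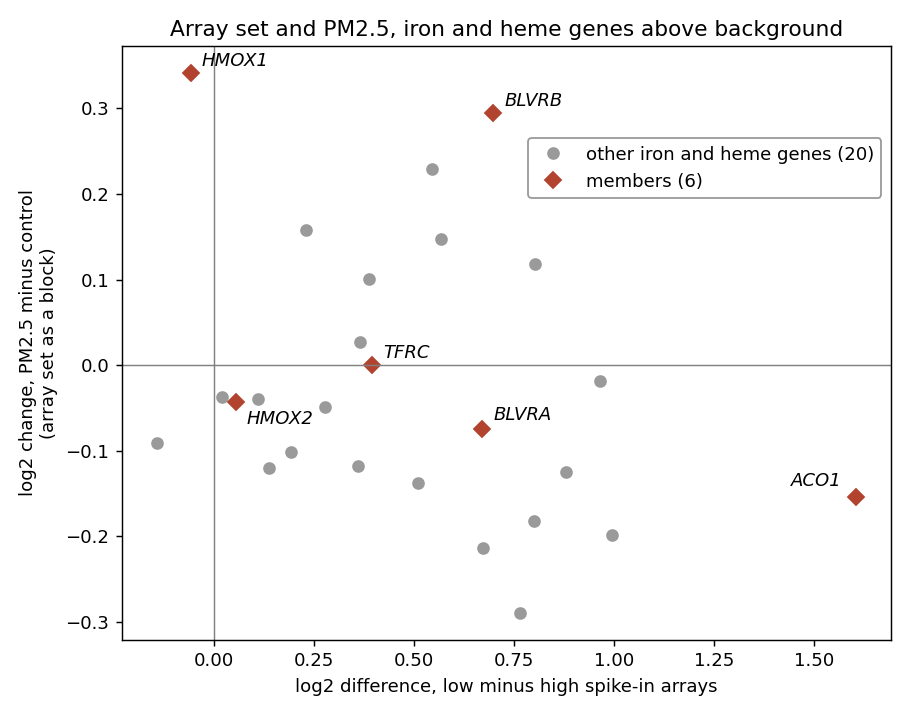
Log2 difference between the low and high spike-in arrays (horizontal axis) against the log2 change after PM2.5 with the array set as a block (vertical axis), for the 6 members (red diamonds) and 20 other iron and heme genes (grey) that varied and lay above background. ACO1 lies farthest to the right (1.60) and HMOX1 highest (0.34), and 19 of the 20 other genes lie to the right of 0.

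The pattern of HMOX1 over the 6 arrays was compared with that of 4096 other varying genes above background by Pearson's r, as a description. The 6 points share their groups and their array sets. The 5 most alike were USP19, a deubiquitinase (r = 0.976), CUTA (0.969), FIBP (0.968), ATP13A2, a lysosomal transporter (0.965), and the microRNA gene MIR3619 (0.957). Each of the 5 had all PM2.5 arrays above all controls, as HMOX1 had, a pattern that picking genes by likeness to HMOX1 favours. Their mean differences were small, from 0.09 for CUTA (7.57 ± 0.0225 against 7.48 ± 0.0532) to 0.20 for ATP13A2 (5.95 ± 0.0542 against 5.75 ± 0.122), and none passed limma's test. Among the members the closest to HMOX1 was BLVRB (r = 0.580) and the least alike SLC40A1 (r = -0.732).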

How the data were processed

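AC16 RNA from 3 PM2.5 and 3 control samples was measured on 1 Affymetrix array each. The deposited values are log2 expression made by the authors with RMA, per the submitters' processing notes, with version and genome build not given in the sources used here, and they reach at most 19.93. Of 70523 probe sets, transcript clusters with 1 gene symbol gave 22465 genes, by the brightest cluster. FTH1 and IREB2 were not analysed here. PM2.5 was compared with control over all genes in limma 3.58.1 (R 4.3.3, lmFit, eBayes with intensity trend, no filter) with Benjamini-Hochberg adjustment. The procedure was also run on simulated data with noise independent between arrays. These held no array sets, so that run says nothing of how the procedure deals with sets. Array sets were defined by the mean of 8 spike-in probe sets and compared in a fit that also held the treatment. Alternatives were blocks, a spike-in covariate, scaling, filters, array weights and leaving out each array. Same-numbered arrays deviated from their group means with correlations of 0.779, -0.654 and 0.773, so the numbers were not taken as pairs. Named genes were the members, the 3 lowest p-values of each group of the wider list, ferritin pseudogenes and the 5 genes most like HMOX1. The members and lists were chosen with earlier results of these data known.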

Additional observations from a re-analysis of the deposited data

How the results depend on the processing

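Under all 16 alternatives 0 genes passed limma's test of PM2.5 against control, and the number with an unadjusted p under 0.05 went from 35, among the 4150 genes above background, up to 6517 when arrays were weighted. The replicate block gave 0 calls and 594 such genes. The change of HMOX1 ranged from 0.21 to 0.37 and that of BLVRB from 0.13 to 0.81, and the members' median from -0.06 to 0.34. Changes turned sign with the array set as a block (BLVRA -0.0743, ACO1 -0.15), with the spike-in covariate (BLVRA -0.23, TFRC -0.0889, ACO1 -0.53) and on leaving out 1 array, where ranges were -9.13e-05 to 0.44 for BLVRA, -0.10 to 1.02 for ACO1 and -0.0613 to 0.0133 for HMOX2. Between array sets, 2 members passed, against 0 with the replicate block, 0 to 1 on leaving out each array and 2 to 3 otherwise. There TFRC passed in 4 alternatives (adjusted p from 0.0171 to 0.038). Set differences turned sign for HMOX1 with the replicate block (0.0723), with arrays centred on their median (0.000301) and on leaving out 1 array (-0.18 to 0.0623), for SLC40A1 with centring (0.0069) and quantile normalization (0.0249), and for HMOX2 with quantile normalization (-0.20) and on leaving out 1 array (-0.0087 to 0.12). The cause was not tested. The ceiling limits FTL, and background limits SLC40A1, which 2 of the filters removed.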
